A study of Homo sapiens with 5 samples.

Results

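A small set of transcripts carried clearly more ribosome footprints in the 1 QTRT1 knockout library than in any QTGAL or QTMAN knockout library. With 1 library of that genotype, a difference of the library cannot be told apart from one of the knockout. The members were chosen by their levels in these same libraries: a row had to hold at least 50 counts in the QTRT1 knockout library, and its CPM (the count scaled to a library sum of 1000000) had to reach at least 2.5 times the highest of the other 4 libraries. Of 8 rows that were left out by name, 7 passed both thresholds and the remaining 1 stood at 2.35 times. This gave 28 member rows of 182398 listed transcripts. Member rows no more than 20 rows apart were joined, which gave 12 loci, and each locus is represented by its member row with the highest QTRT1 knockout count. A row number is the transcript's place in the deposited tables. The level in the QTRT1 knockout library relative to the others is what the rule used, so it is described here and not tested.

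The libraries came from HEK293T, a line of human embryonic kidney cells labelled epithelial, and 1 gene had been knocked out in each: QTRT1 (1 library), QTGAL (2 libraries) or QTMAN (2 libraries). The labels name no treatment, no time point and no clone, and unmodified cells were not analysed here, so every difference is between knockouts. Totals ran from 12002044 counts in QTGAL knockout replicate 2 to 25291912 in QTMAN knockout replicate 2, with 13918194 in the QTRT1 knockout library, where 50 counts are 3.59 CPM. The tables pair no identifier with a gene and the reference used here holds none for these rows. Gene names, gene functions, genome positions, sequences, the footprints of the knocked-out genes and markers of the cell line are therefore not given, and 2 members are named by identifier.

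Queuosine is a nucleoside at the wobble position of the anticodons that read tyrosine, histidine, asparagine and aspartate codons. Cells take up its base, queuine, from diet and microbes. QTRT1 belongs to the transglycosylase that swaps this base in for guanine. In vertebrates QTGAL then attaches a galactose to queuosine on the tyrosine tRNA, and QTMAN a mannose on the aspartate tRNA. Loss of QTRT1 removes the base from all these tRNAs, whereas loss of QTGAL or QTMAN removes only a sugar. Ribosome profiling reads the pieces of mRNA that ribosomes shield from nuclease. A transcript's footprint level follows both how much of its mRNA is present and how densely that mRNA is translated, and these cannot be told apart here.

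The members lay at the low end of the rows that met the count minimum of 50. Their counts in the QTRT1 knockout library ran from 50 to 145 (median 62), and 25 of the 28 were under 100, whereas the 31571 rows with at least 50 counts had a median of 149. The 35 rows that passed both thresholds are 0.111% of those 31571, and the 28 members are 0.0887%. Ratios to the highest other library ran from 2.56 to 5.25 among the members, with a median of 2.99, against a median of 0.906 over all rows with at least 50 counts. The same thresholds turned on QTMAN knockout replicate 1 were passed by 34 rows (0.0945%) in 9 loci. They were passed by 0 rows (0%) in QTGAL knockout replicate 1, 1 row (0.00345%) in QTGAL knockout replicate 2 and 1 row (0.00254%) in QTMAN knockout replicate 2. Passing them was thus about as frequent in 1 QTMAN knockout library as in the QTRT1 knockout library. Each QTGAL or QTMAN knockout library was also set against the other library of its genotype, which the QTRT1 knockout lacks. A difference shared by both libraries of a genotype could hardly pass there, so these shares are not like for like.

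**Figure D1:**
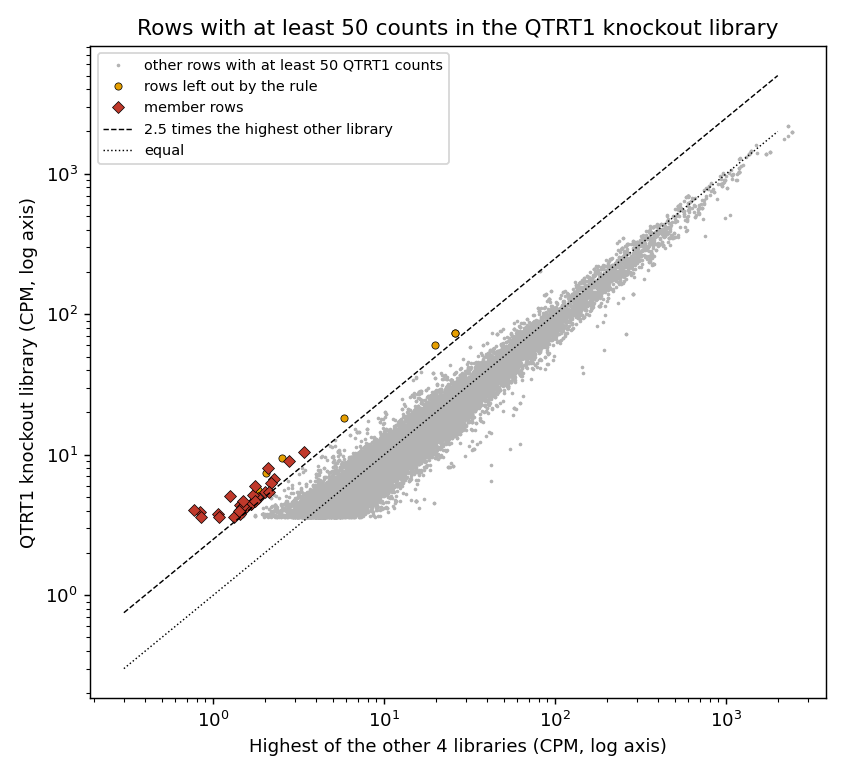
Each point is 1 of the 31571 rows with at least 50 QTRT1 knockout counts, with the highest CPM among the other 4 libraries on the x axis and the QTRT1 knockout CPM on the y axis, both on log axes. The 28 members (red diamonds) lie above the dashed line of 2.5 times, all at 10.4 CPM or lower in the QTRT1 knockout library, and the rows left out by name are orange.

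Members just inside the threshold had ratios of 2.56 (row 166621), 2.66 (row 102465) and 2.67 (rows 43787, 43790 and 154362). Just outside lay rows 175867 and 175868, which hold the same counts, at 2.49. There the QTRT1 knockout library stood at 202 CPM, QTGAL knockout at 30.3 and 64.8 CPM and QTMAN knockout at 43.2 and 81.1 CPM, far above the level of any member. Rows 87281 and 87282 at 2.47 and row 102455 at 2.45 were also just outside, and these lie between member rows of 2 of the loci.

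In 7 of the 12 loci the 4 glycosyltransferase knockout libraries lay within 2.05-fold of each other and the QTRT1 knockout library stood apart from them. The closest agreement was at row 113021, of 1138 codons (the deposited length column, read as codons). The QTRT1 knockout library stood at 4.38 CPM (61 counts), QTGAL knockout at 1.45 and 1.42 CPM and QTMAN knockout at 1.43 and 1.30 CPM. The highest of these 4 was 1.11 times the lowest, and the QTRT1 knockout library lay 3.03-fold above the highest. The exact 95% interval of that ratio was 1.96 to 4.75 (Clopper-Pearson on the counts of both libraries). Such intervals treat each read as an independent molecule, which reads without molecular identifiers need not be, so they may be too narrow. They cover counting error at most and take no account of the choice of rows.

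At row 16599, of 619 codons, the QTRT1 knockout library stood at 3.81 CPM, QTGAL knockout at 1.02 and 0.750 CPM and QTMAN knockout at 1.06 and 0.988 CPM. At row 123812, of 473 codons, it stood at 3.59 CPM against 0.682 and 1.08 CPM in QTGAL knockout and 0.583 and 0.672 CPM in QTMAN knockout. In both loci the 4 lower libraries lay at about 1 CPM or less, on 9 to 25 counts each. At row 154362, of 789 codons, the QTRT1 knockout library stood at 4.67 CPM, QTGAL knockout at 1.28 and 1.75 CPM and QTMAN knockout at 1.38 and 1.27 CPM. At row 43787, of 324 codons, it stood at 4.89 CPM against 0.895 and 1.83 CPM in QTGAL knockout and 1.01 and 1.42 CPM in QTMAN knockout. Neither locus separated QTGAL from QTMAN knockout, as the libraries of the genotypes overlapped.

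The shortest locus row and the most densely covered one also belonged to these 7. At row 102454, of 219 codons, the QTRT1 knockout library stood at 6.32 CPM, QTGAL knockout at 1.75 and 2.17 CPM and QTMAN knockout at 2.01 and 1.46 CPM. At row 166618, of 253 codons, it stood at 8.98 CPM (125 counts), against 2.77 and 1.83 CPM in QTGAL knockout and 1.64 and 1.42 CPM in QTMAN knockout. Row 166618 lies 2 rows before a transcript that the rule left out by name, and that row, of 196 codons, had much the same profile: 7.40 CPM in the QTRT1 knockout library, 2.05 and 1.25 CPM in QTGAL knockout and 1.17 and 0.949 CPM in QTMAN knockout.

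In the other 5 loci the 4 lower libraries differed from each other by 3-fold or more, or included a count of 0. Among the 18049 rows with a length whose mean level in those 4 libraries was in the same range as that of the 12 loci, 10.2% did so. The transcript uc003hmg.4 at row 43883, of 473 codons, had the highest ratio of the locus rows. The QTRT1 knockout library stood at 3.88 CPM (54 counts), QTGAL knockout at 0.383 and 0.833 CPM and QTMAN knockout at 0.212 and 0.316 CPM, a ratio of 4.66 to the highest (95% interval 2.35 to 10.3). The counts in the lower libraries were 9, 10, 4 and 8. At row 161935, of 1347 codons and the longest locus row, the levels were 5.10 CPM in the QTRT1 knockout library, 0.383 and 1.25 CPM in QTGAL knockout and 0.689 and 0.514 CPM in QTMAN knockout, a ratio of 4.08.

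The transcript uc001tug.4 at row 117046, of 1088 codons, had the highest level of any member. The QTRT1 knockout library stood at 10.4 CPM (145 counts, 95% Poisson interval 8.79 to 12.3 CPM), QTGAL knockout at 0.298 and 1.75 CPM and QTMAN knockout at 0.583 and 3.40 CPM. Replicate 2 was above replicate 1 in both genotypes, and in QTMAN knockout the replicates differed more than the QTRT1 knockout library did from the higher of them, which it exceeded by 3.06-fold. The 3 following rows with counts, 117047, 117048 and 117051, of 178, 224 and 166 codons, had 20, 26 and 18 counts in the QTRT1 knockout library and so could not be members. QTMAN knockout replicate 2 was second in each of them, with 11, 11 and 8 counts, and no other library had over 3.

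At row 140611, of 577 codons, the QTRT1 knockout library stood at 4.67 CPM (65 counts), QTGAL knockout at 0.511 and 1.50 CPM and QTMAN knockout at 0.265 CPM in replicate 1. QTMAN knockout replicate 2 had 0 counts, and 3 counts, taken here as a floor, are 0.119 CPM there. The member row 140609, of 572 codons, gave 55, 11, 17, 5 and 0 counts in the QTRT1, both QTGAL and both QTMAN knockout libraries, against 65, 12, 18, 5 and 0 at row 140611. The libraries thus fell in the same order in both rows.

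The locus of rows 87280 to 87287 held 5 member rows of 389 to 921 codons and had the widest spread. At its row 87287 the QTRT1 knockout library stood at 6.75 CPM (94 counts), QTGAL knockout at 0.0426 and 1.42 CPM and QTMAN knockout at 2.28 and 0.237 CPM. QTGAL knockout replicate 1 had 1 count and QTMAN knockout replicate 2 had 6, while the other libraries of the same genotypes had 17 and 43, so libraries of the same genotype lay far apart here. The rows just before, 87273 to 87276, of 298 and 319 codons, ran the other way. At row 87273 the QTRT1 knockout library had 1 count (0.0718 CPM), QTGAL knockout 52 and 6 counts (2.22 and 0.500 CPM) and QTMAN knockout 63 and 14 counts (3.34 and 0.554 CPM). Only QTMAN knockout replicate 1 was high, among those 4 libraries, in both stretches.

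**Figure D2:**
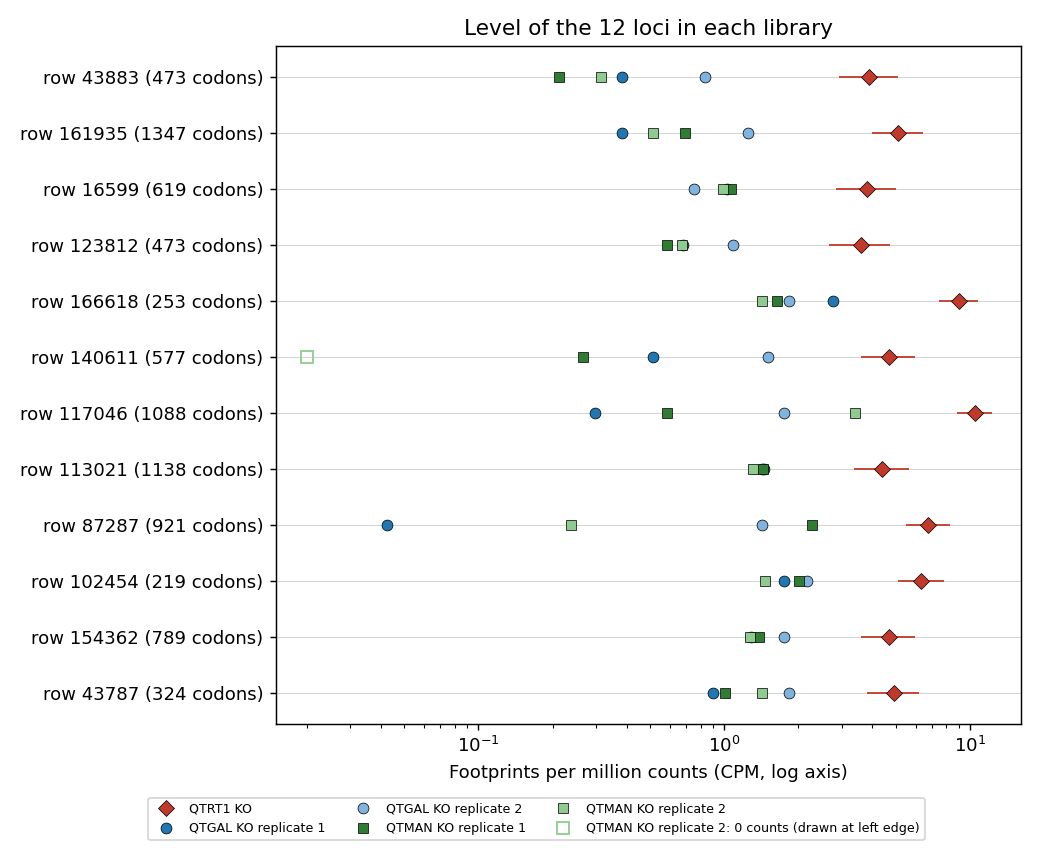
CPM (log axis) of the row that represents each of the 12 loci in each of the 5 libraries, ordered by the ratio of the QTRT1 knockout library to the highest other, with bars for the exact 95% Poisson interval of the QTRT1 knockout count. The 4 other libraries lie close together at row 113021 (1.30 to 1.45 CPM) and far apart at row 87287 (0.0426 to 2.28 CPM), and the open square marks the 0 counts at row 140611.

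Of the 12 loci, 6 held 1 member row and 6 held 2 to 5. The 28 member rows held 27 distinct sets of counts, since rows 43788 and 43790 were the same in all 5 libraries. Other rows of a locus differed in their counts, as rows 166618 and 166629 with 125 and 56 in the QTRT1 knockout library. Rows of a locus may still share footprints, as isoforms of a gene do, and are not taken as independent. Within 20 rows of the members there were 150 other rows with at least 50 counts over the 5 libraries. Of these, 26 stood at 2 times the highest other library or more, around 6 of the loci, 40 between 1 and 2 times, and 84 at or below it. At 11 of the 12 loci at least 1 neighbour stood at or below the highest other library, and row 117046 had no neighbour with enough counts. The locus of row 102454 had the most neighbours on the same side: 9 neighbours stood at 2 times or more, 8 between 1 and 2 times and 11 at or below the highest other library.

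The direction turned between the adjacent rows 166617 and 166618. At row 166617, of 122 codons, the QTRT1 knockout library stood at 0.718 CPM, below QTGAL knockout at 1.53 and 1.33 CPM and QTMAN knockout at 1.06 and 1.07 CPM. In the next row it stood at 8.98 CPM, above all of them. Likewise at row 16605, of 164 codons, 6 rows after the locus row 16599, the QTRT1 knockout library stood at 0.216 CPM (3 counts), below QTGAL knockout at 0.724 and 0.583 CPM and QTMAN knockout at 0.795 and 0.633 CPM.

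**Figure D3:**
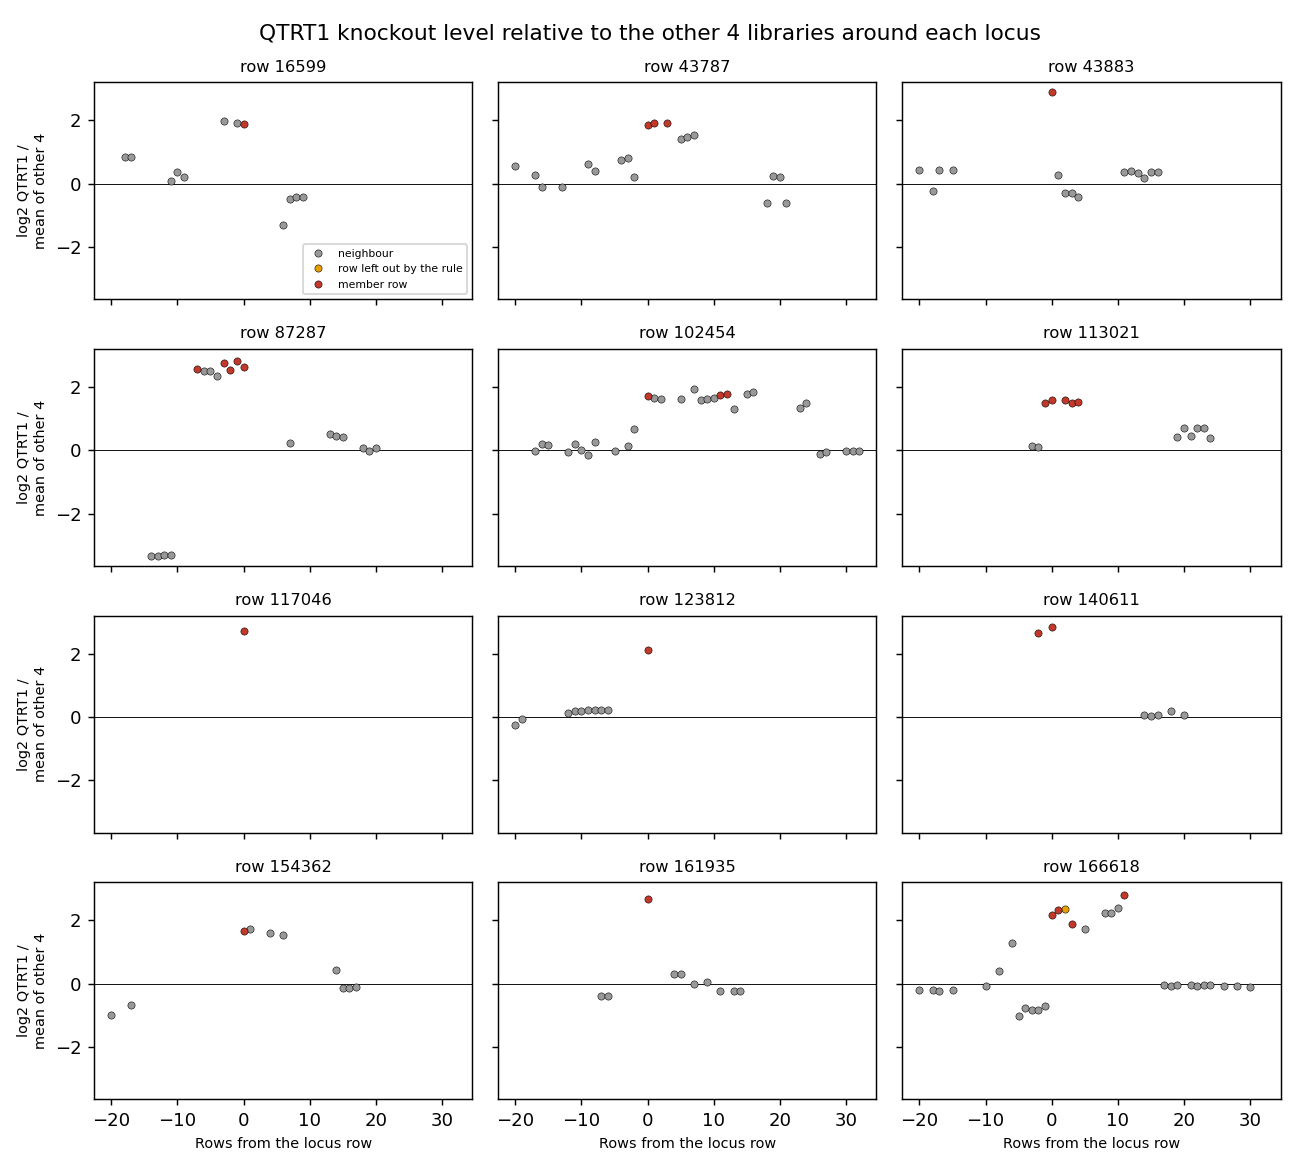
For each locus, the log2 ratio (pseudocount 0.1 CPM) of the QTRT1 knockout library to the mean of the other 4 (y axis) against the distance in rows from the locus row (x axis), for rows with at least 50 counts in all. Member rows are red, neighbours grey and the row left out by name orange. Many neighbours lie near 0, some lie at or above the members of their locus (row 16596 at 1.99, beside row 16599 at 1.89), and rows 87273 to 87276, before row 87287, lie near -3.3.

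In the wider surroundings, rows within 500 of a locus but outside its neighbourhood (183 to 334 rows with at least 100 counts in all), the median log2 ratio of the QTRT1 knockout library to the mean of the others ran from -0.43 to 0.12. It was below 0 around 4 loci and lowest around row 161935.

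Length was a property that the rule did not use. The locus rows' median length was 598 codons, from 219 to 1347. It was 328 codons over all rows with at least 50 QTRT1 knockout counts, and 307 over the 15520 rows whose count lay in the members' range of 50 to 145, which 10 of the 12 exceeded. A count minimum favours long transcripts over short ones of the same density, and no test was made. A locus gives only its row with the highest QTRT1 knockout count, whereas the other medians take every row, so the units are unlike. Per length, the median density of the locus rows in the QTRT1 knockout library was 7.84 CPM per 1000 codons (3.79 to 35.5), against 35.5 over all rows with at least 50 counts. That set has no upper limit on counts and a median of 149, so the densities are not matched for count.

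QTGAL knockout replicate 2 was the highest of the 4 lower libraries at 7 of the 12 loci. It was so in 28.1% of the rows at the same level. QTGAL knockout replicate 1 and QTMAN knockout replicate 1 were highest at 2 loci each and QTMAN knockout replicate 2 at 1. This library thus sets the ratio at most loci, and it is also the shallowest of the 5. Without it, 63 rows in 20 loci passed the thresholds, though leaving out any of the other libraries can only keep or add rows.

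QTGAL against QTMAN knockout was the comparison that the rule had not used. None of the 28 member rows tested was called different (edgeR quasi-likelihood test over 60966 transcripts, smallest adjusted p = 0.622 among members). The filter on low counts used all 5 libraries, so the high QTRT1 knockout counts helped members through it. Without that library 26 member rows were tested and 0 called, and rows 43883 and 140609 did not pass the filter. Over all transcripts 0 (0%) were called. At an unadjusted p under 0.05 there were 3 member rows, 1 of them a locus row, and 3953 transcripts (6.48%) in all. DESeq2 called 12 transcripts and gave no adjusted p for any member. With 1 QTRT1 library and 2 of each other genotype, the fit leaves 2 residual degrees of freedom, and the labels do not say whether same-genotype libraries came from different cultures, so p-values measure a spread that may be technical.

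The locus rows had log2 fold changes of QTGAL over QTMAN knockout between -1.32 and 2.87. The median was 0.13, and 9 of 12 lay above 0. Their median absolute value was 0.30 and the median SE 0.40, against 0.17 and 0.24 over all tested transcripts. The locus rows had means of 0.436 to 1.92 CPM over the QTGAL and QTMAN knockout libraries, and the tested transcripts were not matched to that level. The largest fold change was at row 140611, 2.87 ± 0.85 (SE, edgeR adjusted p = 0.622), higher in QTGAL knockout. It was called with no filter on low counts (edgeR adjusted p = 0.0143), as was row 140609, which has much the same counts. That setting called 282 transcripts in all. Without QTMAN knockout replicate 1 the value at row 140611 was 7.06, when the 0 counts of replicate 2 stood alone for the genotype. Its adjusted p by edgeR ranged from 0.0143 to 0.647 over the settings that kept both QTGAL and both QTMAN knockout libraries. Row 166618 had 0.61 ± 0.28 (SE; adjusted p = 0.773 by edgeR) and row 43883, tested only through its QTRT1 knockout count, had 0.98 ± 0.57 (SE; adjusted p = 0.851 by edgeR).

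Of the 3 values below 0, that at row 16599, -0.18 ± 0.34 (SE; adjusted p = 0.966 by edgeR), stayed between -0.44 and -0.04 over the settings tried, and those at rows 117046 and 87287 turned when 1 library was left out. At row 117046 the value was -1.32 ± 0.75 (SE; adjusted p = 0.846 by edgeR), and 0.55 without QTMAN knockout replicate 2. At row 87287 it was -1.09 ± 0.999 (SE; adjusted p = 0.907 by edgeR), but 0.29 without QTGAL knockout replicate 1 and 1.14 without QTMAN knockout replicate 1. Without QTMAN knockout replicate 2 it was -2.01, with QTMAN knockout then resting on 1 library. Its adjusted p by edgeR ranged from 0.780 to 0.907 over the settings that kept both QTGAL and both QTMAN knockout libraries. Without QTGAL knockout replicate 2, 8 of the 12 locus rows kept their sign. Rows 43787, 161935, 154362 and 102454, all above 0 with every library, then stood at -0.51, -0.66, -0.09 and -0.02. Row 43787 also turned, to -0.22, without QTMAN knockout replicate 1, and row 102454, to -0.06, without QTMAN knockout replicate 2.

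Both QTGAL knockout libraries lay above both QTMAN knockout libraries at 4 of the 12 locus rows (43883, 123812, 140611 and 166618), and the reverse held at 0. Over the 60966 tested transcripts these shares were 20.9% and 15.7%. With TMM library sizes the counts were 4 and 1, with row 113021 in place of row 123812 among the 4 and row 16599 in the reverse.

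**Figure D4:**
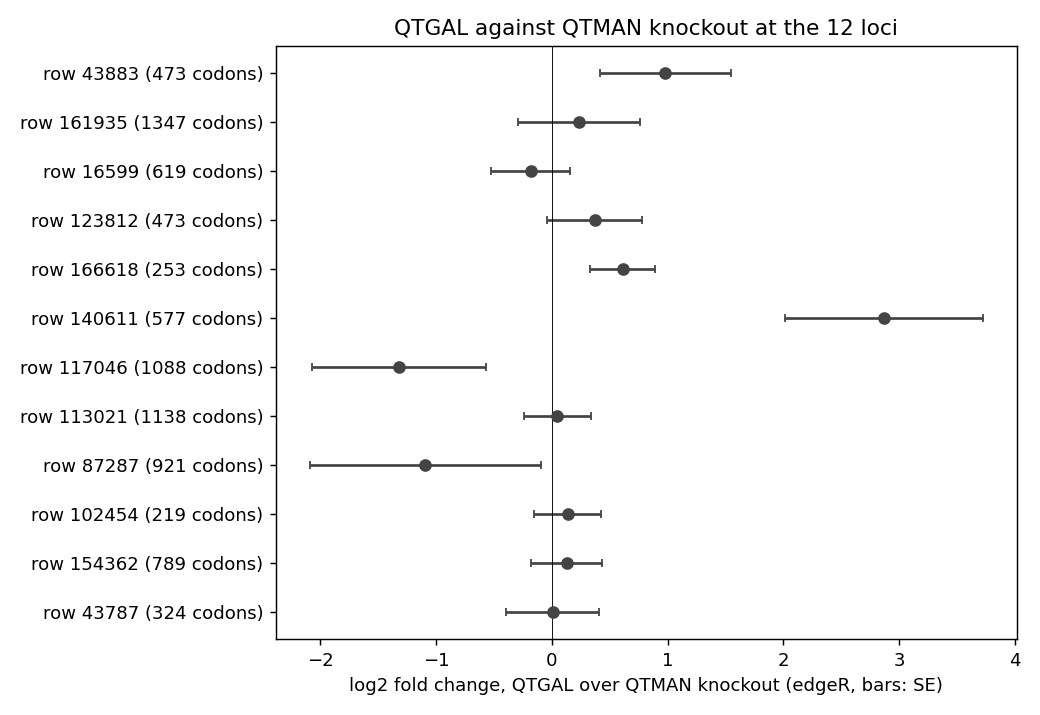
Log2 fold change of QTGAL over QTMAN knockout (x axis) with its SE at each of the 12 loci, from the edgeR fit over all tested transcripts, in the same order as the plot of levels. Values run from -1.32 at row 117046 to 2.87 at row 140611, and none was called.

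For the contrast that the rule did use, QTRT1 knockout against the mean of both other genotypes, fitted log2 fold changes of the locus rows ran from 1.62 at row 113021 to 3.80 at row 140611 around a median of 2.24. The named transcripts had 3.28 ± 0.41 (uc003hmg.4) and 2.93 ± 0.60 (uc001tug.4, both SE). Of the member rows 15 of 28 were called, all higher, where 0.161% of all tested transcripts were called and 0.121% were called higher. As the members were chosen on this difference, nothing is read from that count. Among the 12 locus rows the SE was largest, 0.75, at row 87287.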

How the data were processed

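Ribosome footprints were measured in 5 HEK293T libraries. The authors deposited raw counts per transcript beside a length. Per the submitters' processing notes, STAR 2.7.0a, bcl2fastq 2.19 and CASAVA were used with build hg38. The sources used here do not name the annotation, the counting program or the strand setting. Rows are the same in all tables, and 93916 carry a length. Replicates were numbered in accession order. CPM is the count over the library's sum. The fits used edgeR 4.0.16 in R 4.3.3 (filterByExpr, TMM, glmQLFit and glmQLFTest, 1 mean per genotype over 5 libraries, Benjamini-Hochberg over 60966 transcripts, calls under 0.05), checked on simulated data, with DESeq2 1.42.0 as an alternative. The SE is the log2 fold change over the square root of F. The members and lists were chosen with earlier results of these data known. All 12 loci are described, and 2 identifiers named: the highest ratio and the highest QTRT1 knockout CPM among locus rows. Planned gene lists and markers needed symbols and were not run.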

Additional observations from a re-analysis of the deposited data

How the results depend on the processing

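The 28 member rows in 12 loci rest on the thresholds. There were 72 rows in 28 loci at 2 times the highest other library and 14 rows (9 loci) at 3 times; 57 rows in 23 loci with at least 25 counts and 3 rows in 2 loci with at least 100. TMM or DESeq2 scaling gave 28 rows in 12 loci. Leaving out 1 of the other libraries gave 31 to 63 rows in 14 to 20 loci, the most without QTGAL knockout replicate 2. Rows could only be kept or gained there, since the highest of fewer libraries cannot be higher. Joining rows within 5 or 50 rows gave 14 or 12 loci. Over 72 recomputed locus ratios (scalings and left-out libraries), 4 left their counting interval, all upward without 1 library. Leaving out a library can only keep or raise a ratio, so those settings could not have lowered any. With TMM or DESeq2 scaling the ratios ran from 2.61 to 4.56. The median length with the longest member row was 598 codons. With TMM sizes, QTMAN knockout lay above QTGAL knockout at 1 locus in place of 0.

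For QTGAL against QTMAN knockout the 0 calls became 12 with DESeq2, 282 with no filter and 49 with a replicate block, and 0 to 506 without 1 library (most without QTMAN knockout replicate 2). For QTRT1 knockout against both, 98 calls became 167, 1161 and 464, and 95 to 1438 without 1 library. Titles do not tie equal numbers together, so the block pairs libraries by accession order only. Under it 0 member rows were called for QTGAL against QTMAN knockout, as without it. For QTRT1 knockout against both, 20 member rows were called with the block and 15 without, beside 464 and 98 transcripts in all. The members were chosen on that difference, so nothing is read from the 20 or the 15. The cause of the shifts in calls was not tested. Counts of 50 to 145 in 1 QTRT1 knockout library limit every ratio: the lowest lower bound was 1.61 and 6 of the 12 were at 2 or more. The rule chose rows by these same ratios and the intervals take no account of that choice, so the bounds are description only.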
